A study of Mus musculus with 6 samples.

Results

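Enterocytes are the absorptive cells of the small intestine, and 9 genes that mark them were followed here in thymic epithelium: the transcription factors Hnf4a, Hnf4g and Cdx1, the brush border proteins Vil1 and Muc13, the lectin Lgals4, the fatty acid carrier Fabp2, and the secreted peptides Reg3g and Guca2a. They were chosen by name, with earlier results of these data known. Of the 9, 8 are among the 15643 genes of the table, and Lgals4 was not analysed here. The study sorted mature medullary thymic epithelial cells (mTEChi) from NOD mice, an inbred strain prone to autoimmune diabetes, at 4.5 weeks of age, and made MARS-seq libraries of them. The comparison sets 3 libraries labelled Aire-/- (numbers 746, 748 and 749) against 3 labelled Aire+/+ (numbers 745, 750 and 753). All animals shared strain and age. The labels give no further allele, promoter or treatment, and they do not say whether a number stands for 1 animal or a pool. The p-values therefore reflect only how these libraries vary, which may be technical.

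Aire is a transcriptional regulator that lets medullary thymic epithelium make proteins of peripheral tissues, which are then shown to developing T cells. Part of this epithelium also takes on the programme of a peripheral cell type, using the transcription factors that define that type. In mice such mimetic cells include an intestine- and liver-like kind that depends on the HNF4 factors, nuclear receptors that in the gut switch on genes of fat absorption and of the brush border, the layer of microvilli on the face of the enterocyte. The comparison asks how these enterocyte genes differ between mTEChi labelled Aire-/- and Aire+/+.

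The libraries held 1014581 to 1960802 unique molecular identifiers (UMIs, each 1 captured transcript end) in the Aire-/- group and 2736932 to 2887321 in the Aire+/+ group. Levels are CPM (UMIs scaled to library size, with TMM factors), and since only the 3' end of a transcript is captured, they are not divided by its length. Transcripts counted for Aire itself were higher in the libraries labelled Aire-/-, at 4865 ± 336 CPM, against 2268 ± 194 CPM in those labelled Aire+/+ (SD, n = 3 each, log2 fold change 1.10, edgeR adjusted p = 7.78e-05). Which stretch of Aire was deleted is unlabelled, and a transcript end outside that stretch checks nothing about the genotype, so every direction below rests on the labels. Of 15 markers of mature medullary epithelium, 14 are in the table and none of these is at 0 across a genotype. Gapdh was nearly missing from library 746 of the Aire-/- group (28 UMIs) and library 753 of the Aire+/+ group (90 UMIs), and the members' calls are also given without this pair.

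In the libraries labelled Aire-/-, Fabp2, Reg3g and Muc13 fell, Cdx1 rose, and Hnf4g, Vil1 and Guca2a were not called. Hnf4a had no UMI in any Aire-/- library and too few elsewhere for the test. The test was edgeR's quasi-likelihood test on all genes that passed the count filter, called at an adjusted p of 0.05. Among the 8 members measured, 7 passed the filter, and 3 were called lower and 1 higher. Over all 11956 genes tested, 12.1% were called lower and 8.59% higher (20.7% in either direction). For 5 members the range of one genotype lay clear of the other, with 4 of them (Hnf4a among these) lower in Aire-/- and 1 higher. Of all tested genes 20.2% were so parted below and 16.3% above (36.5% in either direction). Hnf4a was not tested and lies outside these shares. The tested members parted below were Fabp2, Muc13 and Reg3g. The median log2 fold change of the 7 tested members was -0.44, beside -0.02 over all tested genes. With sorted bulk cells, fewer cells of a type and less RNA per cell cannot be told apart in any of these values.

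**Figure D1:**
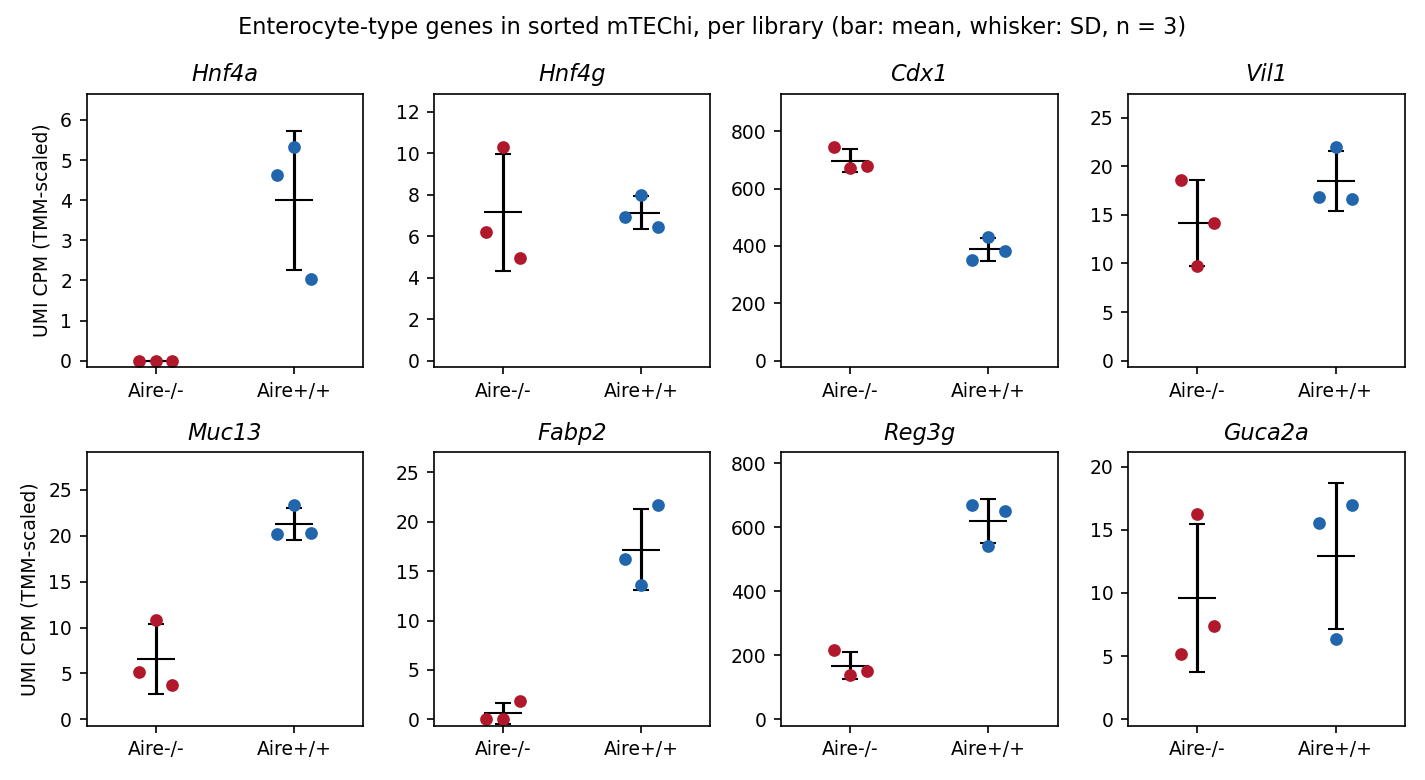
Level of each member (vertical axes, UMI CPM after TMM scaling, each panel on its own linear scale) in the 3 libraries labelled Aire-/- (red, left) and the 3 labelled Aire+/+ (blue, right), with mean and SD. Hnf4a is at 0 in every Aire-/- library, Fabp2, Muc13 and Reg3g lie below all Aire+/+ libraries, Cdx1 lies above them, and Hnf4g, Vil1 and Guca2a overlap.

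The stretches in front of the 3 genes that fell are shown because they hold the only letters in the members' windows that match the binding motifs of the factors among the members. RefSeq (GRCm38.p6) has windows for 7 of the 9 members, all but Hnf4g and Cdx1, in 9 windows counting alternative starts. The 250 bases before each start were searched on both strands for an HNF4 motif (TGNACTTTG), a CDX motif (TTTATNG) and the TATA box (TATAAA). The search covered the whole 250 bases of every window, annotated exon included. Capitals mark the matches below, 5' to 3' on the gene's strand, and the Muc13 stretch is printed only up to where its annotated exon begins.
Fabp2, chr3:122894822-122895071, plus strand: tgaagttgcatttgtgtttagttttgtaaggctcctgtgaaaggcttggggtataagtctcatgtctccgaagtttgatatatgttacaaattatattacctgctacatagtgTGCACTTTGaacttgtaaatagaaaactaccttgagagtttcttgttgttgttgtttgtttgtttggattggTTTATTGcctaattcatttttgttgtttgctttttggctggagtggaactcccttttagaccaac
Muc13, second start, chr16:33794239-33794366, plus strand: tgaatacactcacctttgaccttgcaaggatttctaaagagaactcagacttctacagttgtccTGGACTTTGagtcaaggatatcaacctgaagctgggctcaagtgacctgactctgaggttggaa
Reg3g, chr6:78468875-78469124, minus strand: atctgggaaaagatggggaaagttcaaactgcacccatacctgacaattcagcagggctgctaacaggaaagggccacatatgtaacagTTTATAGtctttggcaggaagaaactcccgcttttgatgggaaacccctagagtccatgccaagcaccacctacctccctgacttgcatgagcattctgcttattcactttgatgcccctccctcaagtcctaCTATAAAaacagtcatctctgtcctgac
Fabp2 has an HNF4 match that begins 137 bases before its start and a CDX match that begins 65 bases before it. Muc13 has an HNF4 match 186 bases before its second start and no match before its first. Reg3g has CDX matches 161 and 28 bases before its start, each of which overlaps a TATA box match. No match to any of these motifs stood in the windows of Hnf4a, Vil1, Guca2a or Lgals4, and the HNF1 motif had no match in any member's window. Of all 32851 windows of this length, 1.19% hold the HNF4 motif, 9.81% the CDX motif, 0.371% the HNF1 motif and 12.4% the TATA box. A match describes letters and is not a bound site, and whether matches go with a fall was not tested.

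The 3 transcription factors differed from each other. Hnf4a, which in adults marks gut, liver, kidney and pancreas, had 0, 0 and 0 UMIs in mTEChi labelled Aire-/- and 14, 16 and 6 UMIs in mTEChi labelled Aire+/+. Its Aire+/+ level was 4.0 ± 1.74 CPM (SD, n = 3), and the pooled level in Aire-/- was at least 5.92-fold lower when 3 UMIs over that group are taken as the floor. At the Aire+/+ level 17.8 UMIs of Hnf4a would fall in the Aire-/- group, where 0 were counted. Hnf4a stayed below the count filter of the main test. With a looser filter (min.count 3) edgeR called it lower (adjusted p = 0.00479), and the 8 alternatives that tested it gave an adjusted p between 0.00466 and 0.0274 with edgeR or DESeq2. Having no UMI in Aire-/-, Hnf4a could pass a count filter only through its Aire+/+ libraries, so these calls are not separate support for a fall. In the authors' deposited table its log2 fold change of Aire+/+ over Aire-/- is 4.94 with an adjusted p of 0.00618. The gene lies on chromosome 2 at positions 163506808 to 163572910 (mm10, plus strand) and has 2 RefSeq starts, which a 3' count does not separate.

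Hnf4g, the paralogue of Hnf4a that in adults is strongest in the intestine, was not called. It had 6, 19 and 8 UMIs in mTEChi labelled Aire-/-, or 7.15 ± 2.81 CPM, and 21, 24 and 19 UMIs in mTEChi labelled Aire+/+, or 7.12 ± 0.796 CPM (SD, n = 3 each). Its Aire-/- libraries lay on either side of the Aire+/+ range, with 748 above it and 746 and 749 below. The fitted log2 fold change was 0.05 (95% interval -0.73 to 0.82, edgeR adjusted p = 0.949), so the interval spans 0. The gene lies on chromosome 3 at positions 3508030 to 3658052 (plus strand).

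Cdx1, a homeobox factor of the intestinal epithelium, was the member that rose. It stood at 720, 1238 and 1099 UMIs in mTEChi labelled Aire-/-, or 698 ± 41.0 CPM, and at 1065, 1290 and 1132 UMIs in mTEChi labelled Aire+/+, or 388 ± 39.0 CPM (SD, n = 3 each). Scaled, these were 745, 671 and 677 CPM in Aire-/- and 352, 430 and 383 CPM in Aire+/+, so that every Aire-/- library was above every Aire+/+ library although its UMIs were not. The spread within either genotype was small, with within either genotype was small, with coefficients of variation of 5.88% in Aire-/- and 10.04% in Aire+/+. The log2 fold change was 0.84 (standard error 0.13, edgeR adjusted p = 0.000474). It was 0.64 when libraries were scaled by their totals alone, a scaling under which the median over all genes was -0.23, and Cdx1 was called higher under all 13 alternatives. Its close relative Cdx2, which sets intestinal identity in the embryo and adult, had 0 UMIs in each Aire-/- library and 11, 12 and 14 UMIs in mTEChi labelled Aire+/+, at least 6.09-fold lower by pooled UMIs and below the count filter. The genes of Cdx1 and Cdx2 thus stood on opposite sides of the comparison, the rare one without UMIs and the abundant one higher, though the difference between them was not tested. Cdx1 lies on chromosome 18 at positions 61018862 to 61036199 (minus strand).

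Other factors of the gut and liver programme gave no edgeR call. Of 24 listed, 16 are in the table, 9 were tested and 0 were called by edgeR, with a median log2 fold change of 0.02. At an unadjusted p under 0.05 edgeR had 5 of the 9, among them Klf5, Foxa1, Gata4 and Creb3l3 with lower values in Aire-/-. DESeq2, which kept all 16, called Cdx2 and Nr1h4 lower and Gata6 higher. Gata6 had 14, 4 and 1 UMIs in Aire-/-, most of them in library 746, and 3, 2 and 2 in Aire+/+, and its genotypes overlapped in CPM. Creb3l3, a lipid regulator of liver and intestine, had 2, 12 and 2 UMIs in Aire-/- and 29, 22 and 27 in Aire+/+ (log2 fold change -1.28, edgeR adjusted p = 0.0774). Nr1h4, the bile acid receptor FXR, had 1, 0 and 0 UMIs in Aire-/- and 13, 11 and 9 in Aire+/+ (pooled ratio of Aire+/+ over Aire-/- 16.3, exact 95% counting interval 2.73 to 663). These factors were named after their values were seen.

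**Figure D2:**
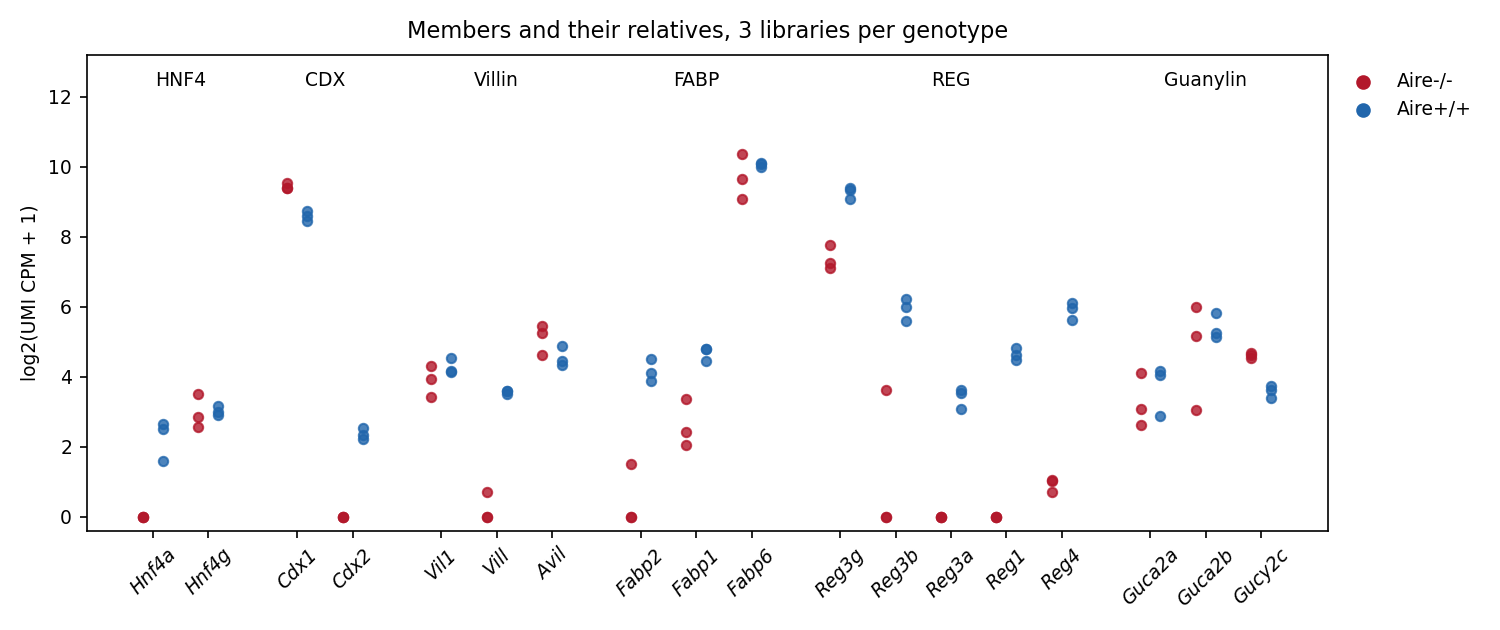
Members and relatives grouped by family (horizontal axis) with their level in each library (vertical axis, log2(UMI CPM + 1)), Aire-/- in red to the left and Aire+/+ in blue to the right of each name. Hnf4a, Cdx2, Reg3a and Reg1 are at 0 in all 3 Aire-/- libraries, whereas Hnf4g, Vil1, Fabp6, Guca2a and Guca2b overlap between genotypes and Cdx1 and Gucy2c are higher in Aire-/-.

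Among the brush border members Muc13 fell and Vil1 was not called. Muc13, a transmembrane mucin of the microvillus surface (chromosome 16, positions 33794037 to 33819934, plus strand), had 5, 20 and 6 UMIs in mTEChi labelled Aire-/-, or 6.57 ± 3.77 CPM, and 61, 70 and 60 UMIs in mTEChi labelled Aire+/+, or 21.3 ± 1.78 CPM (SD, n = 3 each). All Aire-/- libraries were below the Aire+/+ range, and library 748 was the highest of them at 10.8 CPM. The log2 fold change was -1.62 (standard error 0.34, edgeR adjusted p = 0.0037), and -2.29 without library 748. In the authors' deposited table it is 1.63 for Aire+/+ over Aire-/- (adjusted p = 0.00218).

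Vil1, which encodes villin, the actin-bundling protein of the microvillus core (chromosome 1, positions 74409376 to 74435559, plus strand), had 18, 18 and 23 UMIs in mTEChi labelled Aire-/-, or 14.2 ± 4.43 CPM, and 51, 66 and 49 UMIs in mTEChi labelled Aire+/+, or 18.5 ± 3.04 CPM (SD, n = 3 each). The groups overlapped, since library 746 of Aire-/- exceeded libraries 745 and 753 of Aire+/+. The log2 fold change was -0.44 with a 95% interval of -1.04 to 0.16 (edgeR adjusted p = 0.31). The last bases of Vil1 overlap those of Usp37 on the other strand, and the strand setting of the counting is not given in the sources used here. Vill, the villin-like relative, fell, with 0, 0 and 1 UMIs in Aire-/- against 31, 33 and 33 in Aire+/+, a ratio of Aire+/+ over Aire-/- of 47.9 with a counting interval of 8.39 to 1910 (edgeR adjusted p = 9.02e-05). Vill had a log2 fold change of -5.27, -4.62 without library 748 and -7.68 without library 749, and it was below the count filter, and so untested, when libraries were thinned to the smallest library total. Vill was the only call among the 7 listed relatives of villin and gelsolin, all 7 tested.

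Other parts of the microvillus fell more often than they rose. Of 19 listed genes of microvillus and brush border structure 17 were tested, 6 fell and 1 rose, with a median log2 fold change of -0.35. Ush1c, the harmonin scaffold that ties microvillus tips together, was at 10.5 ± 2.41 CPM in Aire-/- and 52.1 ± 3.72 CPM in Aire+/+ (log2 fold change -2.32, edgeR adjusted p = 9.42e-06). Myo7b, the myosin that binds this scaffold, had 1, 3 and 0 UMIs in Aire-/- against 49, 40 and 59 in Aire+/+ (log2 fold change -4.11, -5.22 without library 748 and -3.49 without library 749). Krt20, a keratin of mature gut epithelium, fell by 2.32 on the log2 scale. Anks4b, a further partner of the same tip complex, rose to 24.1 ± 6.92 CPM in Aire-/-, against 9.70 ± 1.28 CPM in Aire+/+ (log2 fold change 1.35, edgeR adjusted p = 0.00275), a call lost when libraries were thinned to the smallest library total. Harmonin and its myosin thus fell while Anks4b, their binding partner, rose.

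Fabp2 showed the largest fall among the tested members. It encodes the intestinal fatty acid-binding protein, which carries dietary fatty acids inside the enterocyte (chromosome 3, positions 122895072 to 122899506, plus strand). It had 0, 0 and 3 UMIs in mTEChi labelled Aire-/-, and 49, 41 and 64 UMIs in mTEChi labelled Aire+/+, or 17.2 ± 4.09 CPM (SD, n = 3). The only UMIs in Aire-/- came from library 749, at 1.85 CPM. Pooled, Aire+/+ over Aire-/- gave a ratio of 25.3 (exact 95% counting interval 8.51 to 124), and the fitted log2 fold change was -4.56 (standard error 0.62, edgeR adjusted p = 0.000187). It was -3.83 without library 748, and without library 749 the gene had no UMI in Aire-/-, at least 16.1-fold lower. The long antisense gene 4933405D12Rik spans Fabp2 on the other strand, and its reads could not be told apart if strand was not used in the counting.

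Relatives of Fabp2 and other genes of fat absorption split. Fabp1, the liver-type carrier that the proximal gut also makes, was at 5.56 ± 3.25 CPM in Aire-/- and 24.7 ± 3.51 CPM in Aire+/+ (log2 fold change -2.07, edgeR adjusted p = 0.000605). Fabp6, the ileal carrier of bile acids and far more abundant here, was at 892 ± 396 CPM in Aire-/- and 1068 ± 46.5 CPM in Aire+/+ and was not called (log2 fold change -0.26, edgeR adjusted p = 0.51), although its Aire-/- libraries ranged widely, at 544, 807 and 1324 CPM. Over the wider family of fatty acid and retinoid carriers, 10 of 11 listed genes were tested, 7 fell and Fabp4 and Fabp5 rose (median log2 fold change -1.19). Fabp5 lost its call under 4 and Fabp4 under 5 of the 13 alternatives, scaling by library totals alone and leaving out library 748, 745 or 750 among both. Of 19 listed genes of fat and retinol absorption 15 were tested, 5 fell and 1 rose (median log2 fold change -0.28). Apob, the structural protein of chylomicrons, had 0 UMIs in each Aire-/- library and 59, 42 and 29 in Aire+/+, at least 21.4-fold lower, and it was below the count filter, and so untested, when libraries were thinned to the smallest library total. Apoa1 fell by 4.27, by 3.63 without library 748 and by 6.60 without library 749, which held 29 of its 33 UMIs in Aire-/-. Dgat2, an enzyme of triglyceride synthesis, rose by 0.68 on the log2 scale (edgeR adjusted p = 0.00509).

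Among the digestive enzymes of the brush border 6 of 11 tested genes fell and 1 rose, out of 21 listed, with a median log2 fold change of -2.27. Alpl, the tissue-nonspecific and not the intestinal alkaline phosphatase, had 0, 1 and 2 UMIs in Aire-/- against 69, 84 and 96 in Aire+/+. Its log2 fold change was -5.25 (edgeR adjusted p = 6.65e-06), and -6.09 without library 749. Ggt1, which splits glutathione, and Ace, a peptidase of the cell surface, fell by 3.06 and 4.17 on the log2 scale (edgeR adjusted p of 1.44e-05 and 1.47e-05). Xpnpep2, an aminopeptidase, was higher at 16.8 ± 1.53 CPM in Aire-/- and 8.46 ± 3.01 CPM in Aire+/+ (edgeR adjusted p = 0.0425), a call lost under 8 of the 13 alternatives. Of 17 listed nutrient transporters 8 were tested, 3 fell and 5 were not called (median log2 fold change -1.19). Slc34a2, a phosphate carrier, fell by 1.69 and Slc5a1, the sodium-glucose carrier SGLT1, by 2.43. Slc5a1 was below the count filter in 3 of the 13 alternatives, and among the others only DESeq2 did not call it. Slc6a19, a neutral amino acid carrier, had a log2 fold change of -1.86, a call lost under 5 of 13 alternatives and untested in 1, and of -2.76 without library 749.

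Lgals4 belongs to the galectins, lectins that bind sugars of the cell surface, and other galectins were in the table. Of 8 tested, 3 fell and 5 were not called (median log2 fold change -0.28). Lgals2, a galectin of the stomach and gut, was at 22.1 ± 14.0 CPM in Aire-/- and 140 ± 36.6 CPM in Aire+/+ (log2 fold change -2.57, edgeR adjusted p = 8.37e-05). Lgals9 fell by 0.56, not called without library 745, and Lgals12 by 1.04, not called under 8 of 13 alternatives.

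Of the secreted members Reg3g fell and Guca2a was not called. Reg3g, a lectin that kills Gram-positive bacteria at the gut surface (chromosome 6, positions 78466269 to 78468872, minus strand), had 208, 254 and 244 UMIs in mTEChi labelled Aire-/-, or 168 ± 41.6 CPM, and 2021, 1623 and 1919 UMIs in mTEChi labelled Aire+/+, or 619 ± 69.0 CPM (SD, n = 3 each). The highest Aire-/- library, 746 at 215 CPM, stayed far below the lowest Aire+/+ library, 750 at 540 CPM. The log2 fold change was -1.90 (standard error 0.17, edgeR adjusted p = 8.39e-06), and between -2.10 and -1.76 under the 13 alternatives. Reg3g was thus lower but still well counted in Aire-/-, with 706 UMIs in all.

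Its relatives in the same gene cluster were nearly or fully without UMIs there. The Reg genes of mouse chromosome 6 lie between positions 78370657 and 78468872, with Reg3g at one end, and Reg3d among them was not analysed here. Reg1 had 0 UMIs in each Aire-/- library and 72, 64 and 80 in Aire+/+, at least 35.5-fold lower (edgeR adjusted p = 1.19e-05). Reg3a had 0 against 32, 34 and 22 UMIs, at least 14.5-fold lower, and Reg2, below the filter, had 0 against 4, 22 and 16 UMIs, at least 6.91-fold lower. Reg3b, a close paralogue of Reg3g, had 11, 0 and 0 UMIs in Aire-/- against 190, 142 and 216 in Aire+/+. Its ratio of Aire+/+ over Aire-/- was 24.6 with a counting interval of 13.6 to 49.6 (edgeR adjusted p = 0.000179), all UMIs in Aire-/- came from library 746, and DESeq2 did not call it. Reg3b had a log2 fold change of -4.55, -3.77 without library 748 and -3.90 without library 749, while without library 746 it had no UMI in Aire-/-. Reg4, on another chromosome, had 1, 2 and 1 UMIs against 187, 144 and 199 (ratio 65.4, counting interval 25.4 to 241). The smaller fall of Reg3g than of these relatives was not tested, and the cluster was looked at after the values were seen. No member was listed with a near-identical copy of its last 300 nt among annotated transcripts. Genes whose ends matched many others were dropped from that listing, so a shared repeat in a member's end would not show.

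Other defence and barrier proteins of the gut mostly fell. Of 23 listed, 15 were tested, 11 fell and 3 rose, with a median log2 fold change of -2.73. Saa3, an acute-phase apolipoprotein, was at 130 ± 6.43 CPM in Aire-/- and 869 ± 110 CPM in Aire+/+ (log2 fold change -2.73), and its transcript end carries a sequence shared with many other transcripts. Itln1, a gut lectin that binds microbial sugars, rose to 223 ± 25.8 CPM in Aire-/-, against 111 ± 0.28 CPM in Aire+/+. Nos2, the inducible nitric oxide synthase, rose by 1.18, and Tm4sf5, a membrane protein of gut and liver, by 0.55, the second losing its call under 6 of 13 alternatives. Among transmembrane mucins, the family of Muc13, 4 of 10 were tested and Muc15 alone was called (log2 fold change -1.19, edgeR adjusted p = 0.0257), a call lost under 6 of 13 alternatives, while Muc1 (-0.06), Muc3 (-0.05) and Muc4 (-0.51) were not.

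Guca2a encodes guanylin, a peptide that the gut epithelium releases to drive salt and water secretion through the receptor guanylate cyclase C (chromosome 4, positions 119637704 to 119639471, plus strand). It had 5, 30 and 12 UMIs in mTEChi labelled Aire-/-, or 9.61 ± 5.87 CPM, and 47, 19 and 50 UMIs in mTEChi labelled Aire+/+, or 12.9 ± 5.76 CPM (SD, n = 3 each). The groups overlapped fully, with library 748 of Aire-/- as high as the upper Aire+/+ libraries and library 750 of Aire+/+ as low as the lower Aire-/- ones. The log2 fold change was -0.33 with a 95% interval of -1.28 to 0.62 (edgeR adjusted p = 0.659). Guca2b, uroguanylin, its neighbour on chromosome 4 (positions 119656607 to 119658954), had 7, 116 and 57 UMIs in Aire-/- and 111, 102 and 163 in Aire+/+ and was likewise not called (edgeR adjusted p = 0.848). Gucy2c, their receptor, rose to 23.5 ± 1.31 CPM in Aire-/-, against 11.03 ± 1.32 CPM in Aire+/+ (log2 fold change 1.08, edgeR adjusted p = 0.00473). It was the only call among the 4 tested of 7 listed genes of the guanylin pathway.

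**Figure D3:**
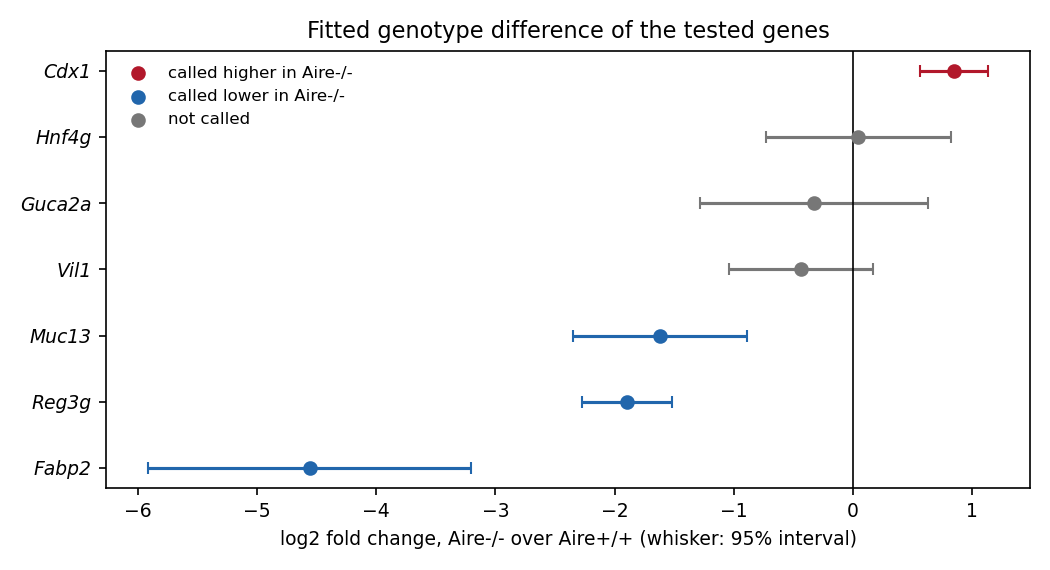
Fitted log2 fold change of Aire-/- over Aire+/+ (horizontal axis) with its 95% interval for the 7 members that were tested, coloured by call. Intervals of Fabp2, Reg3g and Muc13 lie below 0, that of Cdx1 above it, and those of Hnf4g, Vil1 and Guca2a span it.

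Within a genotype the members did not go up and down together. Among the Aire-/- libraries, 748 was the highest for Hnf4g, Muc13 and Guca2a and the lowest for Cdx1, Vil1 and Reg3g, for which 746 was the highest. The spread was widest for Guca2a, whose highest Aire-/- library had 3.14 times the CPM of its lowest, and for Muc13 with 2.93 times, leaving Fabp2 aside because it had a library at 0. It was narrowest for Cdx1, with 1.11 times. Among the Aire+/+ libraries, 750 was the highest for 5 of the 8 members and the lowest for Fabp2, Reg3g and Guca2a. These orders rest on 3 libraries a genotype and carry no test.

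Each tested member was also set beside its nearest genes, with unnamed gene models left out. With 7 tested members among 11956 tested genes, other members were unlikely to come up. The 2 remaining genes whose centred log2 CPM over the 6 libraries lay closest to a tested member were in no case other members. For Cdx1 they were Grk5 and Enho, each with a root mean square difference of 0.05. For Reg3g they were Ripor3 (0.13) and Oit1 (0.14), for Fabp2 Snorc (0.13) and Myh13 (0.14), and for Muc13 Acpp (0.16) and Grb14 (0.18). For the members that were not called they were Mcm3 and Reep3 beside Hnf4g, Ift140 and Efna4 beside Vil1, and Fgf14 and Nr1d2 beside Guca2a. This log2 CPM scale carries a prior count of 2, which draws in low genes, and fitted fold changes could differ, as for Ripor3 at -2.91 beside Reg3g at -1.90.

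**Figure D4:**
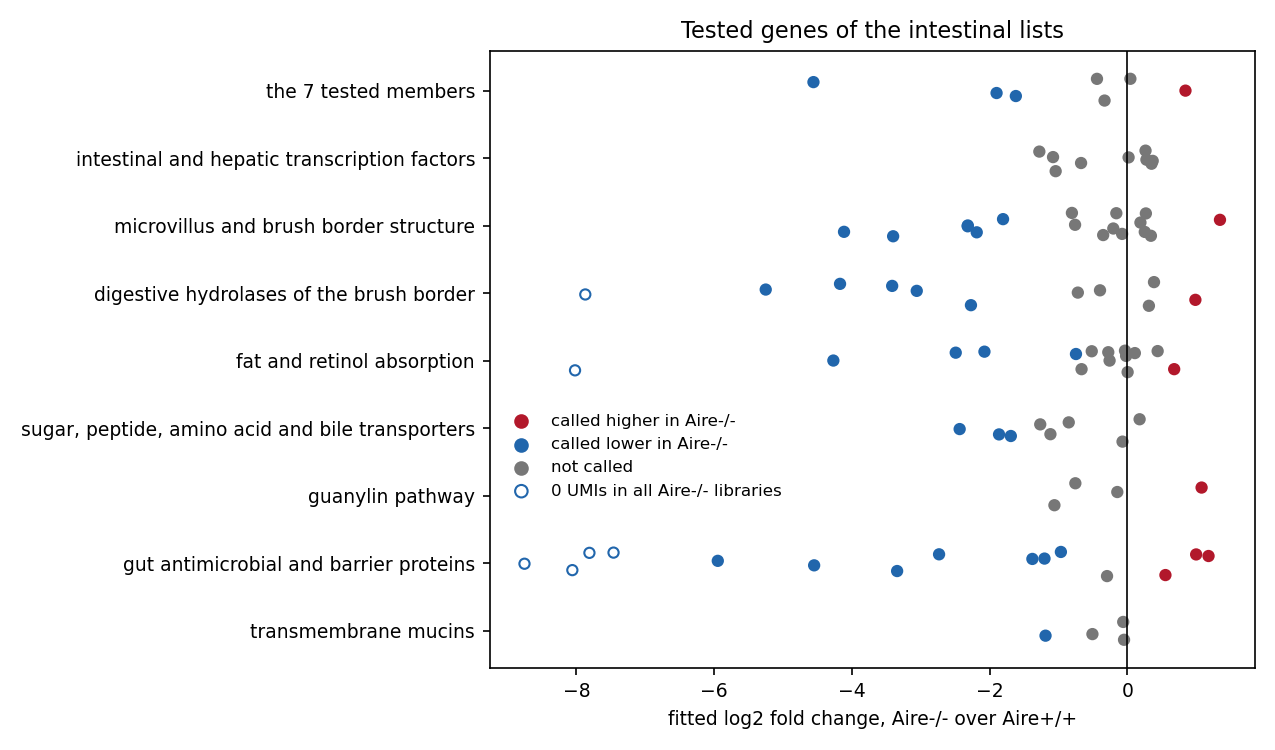
Fitted log2 fold change of Aire-/- over Aire+/+ (horizontal axis) for each tested gene of 8 intestinal lists and for the tested members (rows, with vertical scatter for legibility), coloured by call, with open symbols for genes at 0 UMIs in all Aire-/- libraries, whose fitted values are no bounds. Of the 8 lists, the defence proteins have the most calls lower (11 of 15 tested), edgeR called no listed transcription factor, and each list with a rise has at most 3.

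Over the 8 intestinal lists together, which hold 140 genes other than the members, 83 were tested, 32 were called lower (38.6%) and 7 higher (8.43%), with a median log2 fold change of -0.75. The members' own 3 lower and 1 higher of 7 stand beside these shares.

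Markers of other cell types were called as well, beside 12.1% of all tested genes called lower and 8.59% called higher. Of hepatocyte markers 7 of 8 tested fell, with summed levels of 11.4 to 51.5 CPM in Aire-/- and 129 to 196 CPM in Aire+/+, and Alb, Fgb and Cps1 had 0 UMIs in Aire-/-. Of goblet cell markers 9 of 10 fell and Fcgbp rose (not called under 7 of 13 alternatives), with Muc2 and Zg16 at 0 in Aire-/-. Their summed levels were 2575 to 2735 CPM in Aire-/- and 2373 to 2646 CPM in Aire+/+. Most of this sum was Fcgbp, at 2584 ± 97.0 CPM in Aire-/- and 1972 ± 82.2 CPM in Aire+/+ (SD, n = 3 each), so the sum does not show the fall of the others. Microfold markers fell in 3 of 8 (1988 to 2126 CPM in Aire-/-, 2280 to 2489 CPM in Aire+/+), ciliated cell markers in 4 of 4 (36.3 to 53.0 CPM in Aire-/-, 165 to 225 CPM in Aire+/+) and keratinocyte markers in 5 of 8 (402 to 771 CPM in Aire-/-, 1243 to 1332 CPM in Aire+/+). Tuft cell markers rose in 2 of 8 (264 to 368 CPM in Aire-/-, 166 to 205 CPM in Aire+/+), of which Trpm5 was not called under 7 of 13 alternatives, among them those without library 748, 745, 750 or 753. Neuroendocrine markers rose in 3 of 6 and fell in 1 (698 to 708 CPM in Aire-/-, 401 to 467 CPM in Aire+/+), with Ddc, one of these calls, not called under 10 of 13 alternatives, each single library left out among them. Cortical epithelium markers rose in 6 of 6 (2332 to 2425 CPM in Aire-/-, 998 to 1346 CPM in Aire+/+), and markers of mature medullary epithelium in 6 of 14 (76300 to 88300 CPM in Aire-/-, 44140 to 52320 CPM in Aire+/+), namely H2-Aa, H2-Ab1, H2-Eb1, Cd74, Cd80 and Cd86, which serve antigen presentation and costimulation. Of leukocyte markers 1 of 10 was called lower, near the share over all tested genes, and their median log2 fold change was 0.20. Their summed levels were 1504 to 2454 CPM in Aire-/- and 1311 to 1425 CPM in Aire+/+. The marker called lower was Itgam, which was not called under 1 alternative and untested in 1. Fibroblast and endothelial markers rose in 2 of 5 (170 to 559 CPM in Aire-/-, 80.6 to 112 CPM in Aire+/+). These were Dcn and Col3a1, both highest in library 746. Without it the log2 fold change of Dcn was 1.36 (2.07 with it) and that of Col3a1 1.36 (3.01 with it). Col3a1 was then no longer called, nor was it without library 750 or 753. The part of these shifts in the members' differences was not tested.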

How the data were processed

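The values used are the raw UMI counts that the authors deposited, 1 row per gene symbol. Their table also holds normalized counts, a signal the authors made with 1 size factor per library, regularized log2 values the authors made (left aside here), and the log2 fold changes (Aire+/+ over Aire-/-), p-values and adjusted p-values of the authors' comparison. Per the submitters' processing notes, mm10, STAR 2.4.2a, HTSeq, cutadapt, bcl2fastq and DESeq2 were used, without roles. No source used here gives the annotation, strand setting or UMI handling. The least-counted row peaks at 6 UMIs in its highest library.

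The comparison used edgeR 4.0.16 in R 4.3.3 with TMM scaling, filterByExpr with min.count 10, glmQLFit and glmQLFTest with genotype as the only term, and Benjamini-Hochberg adjustment over all 11956 genes tested. Fold changes are Aire-/- over Aire+/+. Standard errors were derived from the F statistics. CPM of all genes uses the same scaling. For a gene at 0 UMIs in a genotype, the fold is a bound against 3 UMIs over the group, and low counts have exact Clopper-Pearson intervals at 95%, which cover counting error only. The 13 alternatives were DESeq2 1.42.0, RLE scaling, library totals only, no filter, min.count 3, thinning each library to the smallest total, leaving out each library, and leaving out libraries 753 and 746 together. The fit was also run on simulated counts, with the same dispersion for every gene and few genes changed. The data are less simple than that, so the run does not bear on the calls made here. Positions are from GENCODE M21 (GRCm38, the build mm10 names), which holds 15363 of the symbols. The last 300 nt of transcripts were compared with blastn 2.17.0 (at least 80 nt and 90% identity), and genes with many matches were dropped.

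The members, the 22 gene lists and the alternatives were chosen with earlier results of these data known. Named genes are the members, up to 3 genes of each list called in each direction with the smallest p (for cell type marker lists and the FABP family given as counts) and the 2 genes nearest each tested member. Others were named after their values were seen.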

Additional observations from a re-analysis of the deposited data

How the results depend on the processing

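The 4 called members (Cdx1 higher, Fabp2, Muc13 and Reg3g lower) kept direction and call under all 13 alternatives. Hnf4a was called lower in the 8 that tested it, but it could pass a count filter only through its Aire+/+ libraries, so these are not separate support. Hnf4g and Guca2a, not called, changed sign: Hnf4g to -0.16 with library totals only, -0.38 without Aire-/- library 748 and -0.03 without Aire+/+ library 753 (-0.38 to 0.29 over libraries left out), and Guca2a to 0.13 without libraries 753 and 746. Leaving out 1 library gave 3 to 4 members called lower and 1 higher, 30 to 46 intestinal list genes lower and 5 to 7 higher, and 1099 to 1899 of all genes lower and 618 to 1156 higher. Of all genes, 822 were lower and 610 higher after thinning, where fewer were tested (9241), 561 were higher with library totals only (78.8% of calls lower, against 58.6%), and 651 without libraries 753 and 746. Intestinal list genes called higher numbered 4 after thinning. The cause of the other shifts was not tested. No paired analysis was possible because the genotypes share no library number. Aire-/- libraries are shallower, so 0 UMIs of a rare gene there sets a bound only.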
